A study of Macaca radiata with 4 samples.

Results

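The genes described here encode proteasome subunits with their regulators and assembly factors, and the enzymes that activate, conjugate or carry ubiquitin and related modifiers. They were chosen by gene symbol from the annotation of the array: probe sets with 1 symbol beginning PSMA to PSMG, UBE2, UBA or UBQLN, numbered as the subunits and enzymes are. This gave 62 genes with 132 probe sets, of 14132 genes with a symbol of their own on the array. They are 32 proteasome genes, 24 E2 genes, 4 E1 genes and 2 ubiquilin genes. A gene is represented by the probe set with the highest mean log2 value over the arrays. PSMB9 and UBE2C were not matched to a probe set of their own and were not analysed here.

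Corpora lutea came from female bonnet monkeys (Macaca radiata). All animals received CET, described by the submitters as an inhibitor of endogenous LH secretion, in a dose of 150 µg/kg on luteal day 7. The PBS group (replicates 1 and 2) was then injected with PBS at 24 h, and the rhLH group (replicates 3 and 4) with 20 IU/kg of rhLH, a recombinant luteinizing hormone. The corpus luteum was removed 8 h later, quartered and frozen, and each group has 2 arrays. No group without CET was among the samples. The labels describe 2 monkeys per group and do not tie an array to an animal, so the spread between arrays may be partly technical. The comparison of rhLH with PBS asks which luteal transcripts differ once LH is replaced.

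Ubiquitin is a small protein that cells attach to other proteins. An E1 enzyme activates it, an E2 enzyme accepts it and, with an E3 ligase, passes it to the target, and chains of it mark the target for the proteasome. The proteasome has a barrel-shaped core, the 20S particle, built of alpha and beta rings with the proteolytic sites on beta subunits. A cap, the 19S particle, binds ubiquitin chains and unfolds targets with a ring of ATPases. Cells exposed to interferon exchange some beta subunits for inducible ones and form the immunoproteasome. In the corpus luteum, as in other tissues, this system turns over short-lived and damaged proteins.

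One array stood apart from the rest. PBS replicate 1 correlated with the other arrays at Pearson r of 0.752 to 0.780 across 31659 kept probe sets, which are not independent of each other, and the others with each other at 0.940 to 0.947. Control probe sets read both ends of the beta-actin transcript, and the signal near the poly(A) tail exceeded that of the far end 11.2-fold on PBS replicate 1 but 1.49-fold to 1.59-fold elsewhere. For GAPDH the ratio was 3.23 on that array and 1.62 to 2.28 elsewhere. Luteal steroidogenic genes were measured on all arrays: STAR, HSD3B2, CYP19A1, INHA and FDX1 had a summed signal of 80358 on PBS replicate 1 and of 166204 to 180574 on the others, and CYP11A1, LHCGR and SCARB1 were not matched. The low sum was not particular to these genes. Fibroblast markers summed to 32598 on PBS replicate 1 and to 54775 to 63334 on the others. Leukocyte, smooth muscle and endothelial sums were also lowest there, but that of red blood cell markers was not. Single markers did not all follow their sums. PECAM1, TEK, COL3A1, LUM and ITGAM were highest on PBS replicate 1. Neither smooth muscle gene measured was lowest there: TAGLN was lowest on PBS replicate 2 and MYH11 on rhLH replicate 4. The values below are therefore given for each PBS array or with the difference from each, and the part of transcript-end ratio or cell makeup in the differences from PBS replicate 1 was not tested. In whole tissue, fewer cells of a type and less RNA per cell cannot be told apart.

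Set against PBS replicate 2, the rhLH arrays differed little in these genes. Of the 62 genes, 60 passed the filter on dim probe sets, whose level was a signal of 90.7; PSMB11 and UBE2U did not. The median log2 difference of rhLH from PBS replicate 2 was 0.056 over the 60 genes, and 54 of them, 90.0%, lay within 0.5 of 0, as did 79.5% of all 10998 kept genes. Against PBS replicate 1 the median was 0.53, where the median over all kept genes was −0.011. PBS replicate 1 gave the lowest of the 4 values for 38 of the 60 genes, 63.3%, against 39.8% of all kept genes, and the highest for 12, 20%, against 39.9%. Pooled over both PBS arrays the median was 0.26, beside 0.018 over all kept genes. The median signal of PBS replicate 1 was 186 and its 99th percentile 8886, against 136 to 140 and 12091 to 12459 on the others. Most members are bright: a filter at the 70th percentile of mean log2 kept 57 of the 60, but 7205 of the 10998 genes. The background of all kept genes was not matched for brightness, and the part of brightness in these differences was not tested.

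No member passed the test of rhLH against PBS. limma called 0 of 60 genes at an adjusted p under 0.05, with adjusted p-values from 0.919 to 0.990, and 0 of them had an unadjusted p under 0.05. The background was the same: 0 of 31659 probe sets were called, or 0%, and 2.02% had an unadjusted p under 0.05. With 2 arrays per group an exact permutation test cannot give a two-sided p below 0.333. Both rhLH arrays lay above both PBS arrays for 14 of the 60 genes, 23.3%, where all kept genes gave 16.3%, and below both for 5, 8.33%, where all kept genes gave 16.1%. That split of 14 to 5 became 22 to 1 when each array was centred on its median, a step that moved the median of all kept genes from 0.018 to 0.25. Under quantile normalization the split was 12 to 5, and 39 of the 60 pooled differences were positive in place of 45. In 0 member genes did every rhLH array differ at least 2-fold from every PBS array, a size reached upward by 0.318% and downward by 0.336% of all kept genes.

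The size of the difference depended on which PBS array was the control. Both rhLH arrays lay at least 2-fold above PBS replicate 1 for 16 members, 26.7%, and at least 2-fold below it for 2, 3.33%; the shares among all kept genes were 13% and 10.2%. At least 2-fold from PBS replicate 2 were 0 members in either direction, where all kept genes gave 1.63% above and 0.8% below. When PBS replicate 1 was the sole control, limma called 23 of the 60 genes, 20 higher (33.3%) and 3 lower (5%). It called 25.9% of all kept genes in that fit, 15.7% higher and 10.2% lower. When PBS replicate 2 was the sole control it called no member and no other kept gene. In both fits the lone PBS array was assumed to vary like the rhLH arrays.

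**Figure D1:**
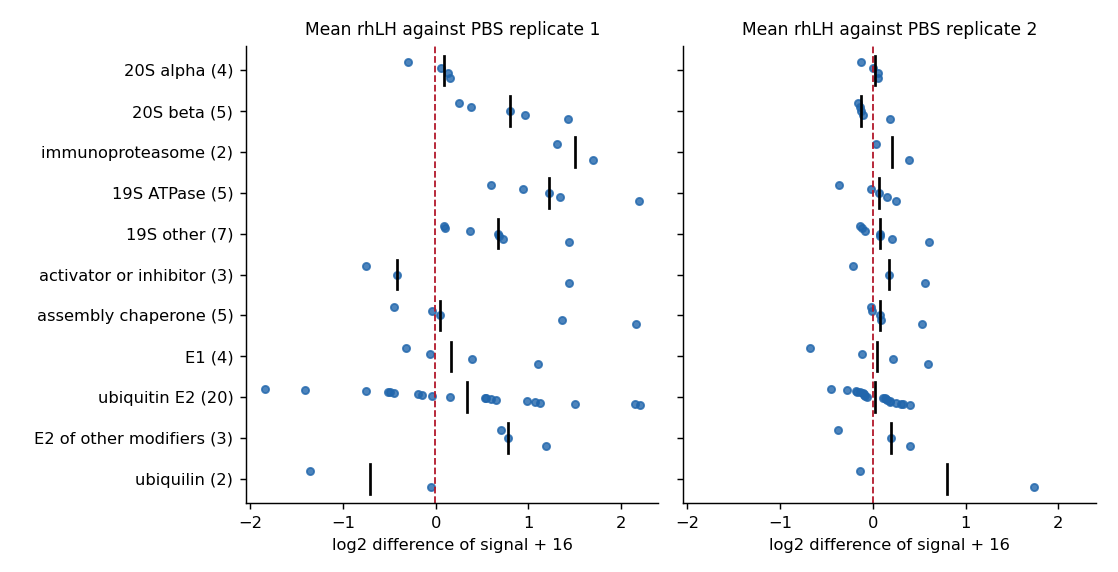
Log2 difference of the mean of both rhLH arrays from PBS replicate 1 (left) and from PBS replicate 2 (right), one point per kept gene, in rows by role with the number of genes in brackets. Black bars are row medians and the dashed line is the median of all 10998 kept genes; points spread from −1.84 to 2.20 on the left, and all but 6 lie within 0.5 of 0 on the right.

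On their representative probe sets, the 4 measured genes of the 20S alpha ring gave nearly the same signal on every array. PSMA7, an alpha ring subunit, had signals of 14071 and 15428 with PBS and of 16539 and 14329 with rhLH. PSMA3 had 8837 and 9428 with PBS and 10999 and 8758 with rhLH, so for both genes the groups overlapped. PSMA2 had 7345 and 7354 with PBS and 7477 and 7806 with rhLH, a log2 difference of 0.056 (SE 0.31). PSMA1 had 6680.2 and 5939.7 with PBS and 5304 and 5579 with rhLH, both rhLH arrays below both PBS arrays, with log2 differences of −0.30 and −0.13 from PBS replicates 1 and 2 and of −0.21 pooled (SE 0.31; limma adjusted p = 0.919). A second PSMA1 probe set lay on the other side, at 0.44 and 0.36. All 4 alpha genes lay within 0.5 of either PBS array, including PBS replicate 1, where 38.3% of the 60 members did. Not all of their further probe sets did so: one of PSMA7 had 2898 on PBS replicate 1 but 7571 to 8091 elsewhere, and one of PSMA2 had 3202 there but 1512 to 1595 elsewhere.

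On their representative probe sets, the 5 measured genes of the 20S beta ring had their lowest signal on PBS replicate 1. PSMB7, which carries the trypsin-like site, had signals of 4025 on PBS replicate 1, 11625 on PBS replicate 2, and 10999 and 10665 on the rhLH arrays. PSMB6, which carries the caspase-like site, had 3026 on PBS replicate 1, 6479 on PBS replicate 2, and 5955 and 5853 with rhLH. For both genes the rhLH arrays lay between the PBS arrays, and the log2 differences were 1.42 and −0.10 for PSMB7 and 0.96 and −0.13 for PSMB6. PSMB5, the chymotrypsin-like subunit, had 4231 and 4853 with PBS and 5514 and 5548 with rhLH. Its rhLH arrays lay above both PBS arrays, by 0.39 and 0.19 on the log2 scale and by 0.29 pooled (SE 0.31; limma adjusted p = 0.919). The further PSMB5 probe set lay 1.55 above PBS replicate 1 and 0.19 below PBS replicate 2 (log2 −0.19). PSMB1, a beta subunit without a proteolytic site, had 4286 and 8159 with PBS and 8081 and 6906 with rhLH, but its second probe set was highest on PBS replicate 1, at 386 against 237 to 292 elsewhere. Over the 5 beta genes the median was 0.80 from PBS replicate 1 but −0.13 from PBS replicate 2.

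On their representative probe sets, the 5 measured ATPases of the 19S base all had positive differences from PBS replicate 1. PSMC4 had 697 on PBS replicate 1 and 3288, 3229.8 and 3249 on PBS replicate 2 and the rhLH arrays, so 3 arrays were nearly equal and 1 was low. PSMC5 had 1388 and 3191 with PBS and 3787 and 3310.1 with rhLH, with 1.34 and 0.15 against the controls in turn and 0.75 (SE 0.46) pooled. PSMC3 had 617 and 1229 with PBS and 1439 and 1489 with rhLH, with 1.23, 0.25 and 0.74 (SE 0.42) in the same order. For PSMC5 and PSMC3 both rhLH arrays exceeded both PBS arrays, though PBS replicate 2 was closer to them than to PBS replicate 1. PSMC2 had 3781 and 6995 with PBS and 8159 and 6535 with rhLH, while its second probe set was highest on PBS replicate 1, at 1385 against 699.99 to 925 elsewhere (log2 −0.60). Averaging both probe sets gave PSMC2 a pooled difference of 0.19 in place of 0.50. PSMC6 had 1053 and 2065 with PBS and 1702 and 1510.2 with rhLH. The medians of the ATPase genes were 1.23 and 0.062 against PBS replicates 1 and 2.

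The 7 measured non-ATPase genes of the 19S particle also had positive differences from PBS replicate 1 on their representative probe sets, from 0.090 to 1.43. PSMD1, a scaffold of the base, had 4345 and 4428 with PBS and 4463 and 4859 with rhLH. Its second probe set had 2382 on PBS replicate 1 but 3454 to 4134 elsewhere, and there the groups overlapped. PSMD8, a lid subunit, had 1800.5 on PBS replicate 1 and 5319 on PBS replicate 2, against 4735 and 5048 with rhLH. PSMD6 of the lid had 2425 and 3686 with PBS and 4363 and 3450.1 with rhLH. Over the 7 genes the median was 0.67 from PBS replicate 1 but 0.072 from PBS replicate 2, and 1 of them, PSMD1, had groups that did not overlap on its representative probe set. PSMD13, a lid subunit named here after its values were seen, ran the other way among controls: PBS replicate 2 was its lowest array at 2771, against 3966 on PBS replicate 1 and 4556 and 3915 with rhLH.

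**Figure D2:**
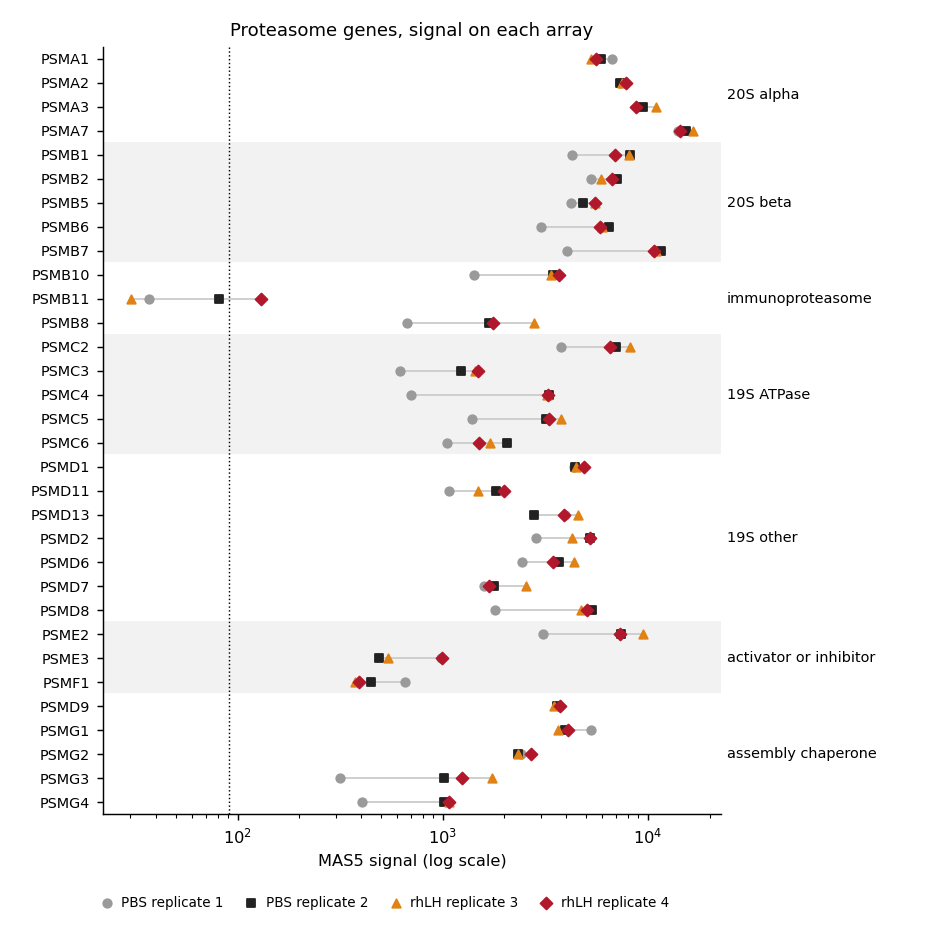
MAS5 signal of the 32 proteasome genes on each of the 4 arrays, on a log axis and grouped by role (the immunoproteasome rows include PSMB11 of the thymus), with a dotted line at the filter level of 90.7. PBS replicate 1 is the lowest array for 23 of the 31 kept genes, while the alpha ring genes at the top have 4 nearly coincident points.

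Assembly factors included the member with the largest pooled difference. PSMG3, a chaperone of alpha ring assembly, had signals of 317 and 1017 with PBS and of 1742 and 1243 with rhLH, means of 667 ± 494 and 1492 ± 353 (SD, n = 2 each). Its log2 difference was 2.16 against PBS replicate 1, 0.53 against PBS replicate 2 and 1.34 (SE 0.59; limma adjusted p = 0.919) pooled, and its unadjusted p was the smallest of the 60. The second PSMG3 probe set lay on the other side, at −0.36 and −0.39. PSMG4, a partner of PSMG3, had 406 and 1013 with PBS and 1072.5 and 1070.3 with rhLH, and its second probe set also differed in sign, at −0.24 and −0.43. PSMG1, which forms a chaperone pair with PSMG2, had 5284 and 3935 with PBS and 3666 and 4075 with rhLH. The remaining factors, PSMG2 and the 19S base chaperone PSMD9, lay within 0.1 of either PBS array on their representative probe sets. A second PSMG2 probe set stood at 1.38 and 0.35, and one of PSMD9 at −1.25 and 0.039.

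Of the regulators that bind the ends of the core, PSME2, an interferon-induced activator subunit, had 3079 and 7381 with PBS and 9470.4 and 7347 with rhLH. A second PSME2 probe set had 343 on PBS replicate 1, 101 on PBS replicate 2 and 71.2 and 59.7 with rhLH, so its difference of −2.14 from PBS replicate 1 was opposite to the 1.43 of the first. PSMF1, known as an inhibitor of the core in vitro, had 651 and 445 with PBS and 372 and 391 with rhLH. Both rhLH arrays lay below both PBS arrays, by −0.75 and −0.21 from the controls in turn and −0.48 pooled (SE 0.40; limma adjusted p = 0.919), and this was the largest negative value among the 5 genes with rhLH below. All 4 kept PSMF1 probe sets had negative pooled differences, from −0.58 to −0.15. Against PBS replicate 1 alone 1 of them was positive, as was 1 against PBS replicate 2 alone.

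Among the interferon-responsive members, UBE2L6 (3.70-fold) and PSMB8 (1.58-fold) had the largest ratios of rhLH replicate 3 to rhLH replicate 4. ISG15 is a ubiquitin-like modifier made in response to interferon; UBA7 is its E1 and UBE2L6 its E2. UBE2L6 had signals of 1166 and 2030.1 with PBS, 5177 on rhLH replicate 3 and 1389 on rhLH replicate 4, so the rhLH arrays lay on either side of PBS replicate 2 and differed from each other 3.70-fold. Among kept genes, 3.4% were at least 2-fold higher on rhLH replicate 3 than on rhLH replicate 4, and 2 of the 60 members were, UBE2L6 and UBQLNL. ISG15, which is not one of the 62 genes, had 150 and 1447 with PBS and 14059 and 653 with rhLH, a 21.0-fold difference between the rhLH arrays. PSMB8, the inducible counterpart of PSMB5, had 673 and 1686 with PBS and 2788 and 1757 with rhLH, with log2 differences of 1.69 and 0.39 from the controls in turn and 1.04 pooled (SE 0.52; limma adjusted p = 0.919). On rhLH replicate 4 it exceeded PBS replicate 2 by 0.059 on the log2 scale, and on rhLH replicate 3 by 0.72. PSMB10, the counterpart of PSMB7, did not share this order, with 1416 and 3449.5 with PBS and 3371 and 3684 with rhLH, though its second probe set had 1769 on rhLH replicate 3 against 1733 on rhLH replicate 4.

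UBA7 was not highest on rhLH replicate 3 on its representative probe set. That probe set had signals of 7766 and 16287 with PBS and 11533 and 8961 with rhLH, both rhLH arrays between the PBS arrays. The 4 further UBA7 probe sets lay 0.87 to 2.84 above PBS replicate 1 and from −0.53 to 0.30 around PBS replicate 2, and one of them was highest on rhLH replicate 3, at 768 against 353 to 561 elsewhere. The sum of leukocyte markers was also highest on rhLH replicate 3, where the 5 measured of 8 (PTPRC, CD14, CD68, CD74 and ITGAM) had a summed signal of 9282, against 2722 and 6540.4 on the PBS arrays and 4972 on rhLH replicate 4. CD74 gave 4542 of that sum, and ITGAM, below the filter, was highest on PBS replicate 1 (148, against 62.1 on rhLH replicate 3). Their part in the values of UBE2L6, PSMB8 and ISG15 was not tested.

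**Figure D3:**
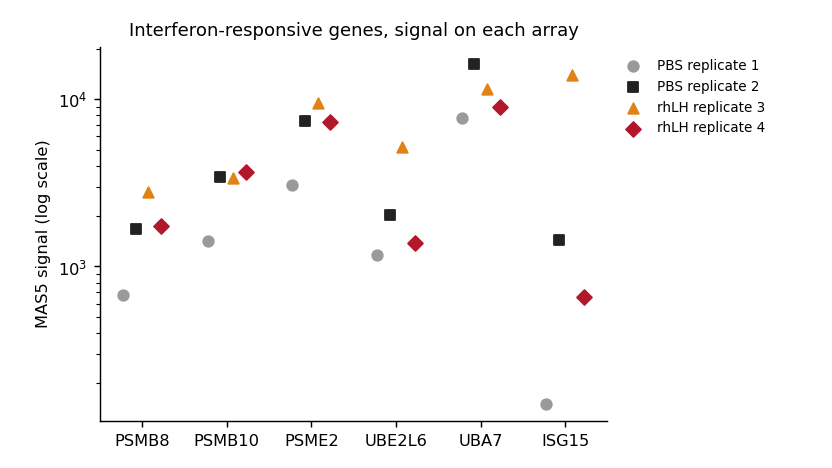
MAS5 signal on a log axis of 5 interferon-responsive members and of ISG15 on each array. The triangle of rhLH replicate 3 is the highest point for PSMB8, PSME2, UBE2L6 and ISG15, at 5177 against 1389 on rhLH replicate 4 for UBE2L6, but not for PSMB10 or UBA7.

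Among E1 enzymes, UBA1, the main activating enzyme of ubiquitin, had 3444 on PBS replicate 1 and 8042 on PBS replicate 2, against 7316 and 7500.1 with rhLH. The log2 difference was thus 1.10 against the first control and −0.12 against the second. UBA6, which activates ubiquitin and FAT10, had 965 and 608 with PBS and 1087 and 787 with rhLH, and its groups overlapped; its further kept probe sets ran from −0.93 to 0.60 against PBS replicate 1 and from −0.47 to −0.21 against PBS replicate 2. UBA2, a subunit of the SUMO E1 named here after its values were seen, had 3885 and 2679 with PBS and 3312 and 2911 with rhLH. SAE1, its partner, came from a list of related genes and had 872 and 1745 with PBS and 1921 and 1808 with rhLH.

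Ubiquitin E2 genes spread to both sides of PBS replicate 1 and closely around PBS replicate 2. Their 20 kept members had medians of 0.34 and 0.019 against the 2 PBS arrays, with 11 positive and 9 negative against the first and 10 of each sign against the second. All 20 lay within 0.5 of PBS replicate 2, from −0.45 to 0.40, as against 79.5% of all kept genes, a background not matched for brightness. Against PBS replicate 1 the range was −1.84 to 2.20.

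UBE2G2, an E2 of endoplasmic reticulum-associated degradation, stood at the upper end. It had 319.9 on PBS replicate 1, 1338 on PBS replicate 2, and 1426 and 1636 with rhLH, a log2 difference of 2.20 from the first control, 0.19 from the second and 1.19 pooled (SE 0.67; limma adjusted p = 0.919). UBE2S, which extends chains for the anaphase-promoting complex of the cell cycle, had 126 and 538 with PBS and 621 and 608 with rhLH, with differences of 2.15 and 0.19. A further UBE2S probe set ran the other way, with 505 on PBS replicate 1 but 240.5 to 307 elsewhere. At the lower end were UBE2D1 and UBE2G1, named here after their values were seen. UBE2D1, of the broadly active UBE2D family, had 2551 on PBS replicate 1 and 627, 619 and 791 on PBS replicate 2 and the rhLH arrays. UBE2G1 had 2319 on PBS replicate 1 and 788, 846 and 887 on the others, and its second probe set gave the opposite, 514 on PBS replicate 1 but 897 to 1100.03 elsewhere.

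Among the 23 kept E2 genes, both rhLH arrays exceeded both PBS arrays for 6, 26.1%, where all kept genes gave 16.3%. They lay below both for 2, 8.7%, where all kept genes gave 16.1%. UBE2E1, UBE2J2 and UBE2W were among those above. UBE2E1 had 1770.1 and 2226 with PBS and 2753 and 2828 with rhLH, means of 1998 ± 323 and 2790.5 ± 52.9 (SD, n = 2 each) and a log2 difference of 0.49 (SE 0.31; limma adjusted p = 0.919), with 0.65 and 0.32 from the controls in turn. UBE2J2, an E2 anchored in the endoplasmic reticulum membrane, had 615 and 675 with PBS and 969 and 825 with rhLH, with differences of 0.53 and 0.40. Its second probe set stood at 2.42 and 0.20, but its groups overlapped. There rhLH replicate 4, at 341, lay below PBS replicate 2, at 395. The second probe set of UBE2E1 stood at 0.28 and −0.33. UBE2W, which attaches ubiquitin to protein N-termini, had 684 and 619 with PBS and 765 and 764 with rhLH. Its differences were 0.16 and 0.30, or 0.23 pooled (SE 0.34), a pooled value smaller than its standard error. The other UBE2W probe sets stood at 2.31 and −0.35 against PBS replicate 1. UBE2E1, UBE2J2 and UBE2W were named after their values were seen.

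On the lower side, UBE2E2 had 1303 and 994.5 with PBS and 927 and 972 with rhLH, and UBE2K, which builds chains that mark proteins for degradation, had 504 and 489 with PBS and 473 and 431 with rhLH. The log2 differences were −0.45 and −0.067 for UBE2E2, or −0.26 pooled (SE 0.33), and −0.15 and −0.11 for UBE2K, or −0.13 pooled (SE 0.37); the pooled values are smaller than their standard errors. UBE2D3, of the same family as UBE2D1, had 6969 and 11143 with PBS and 10732 and 10302 with rhLH. One of its 4 probe sets differed from the rest, at −0.97 and −0.63.

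**Figure D4:**
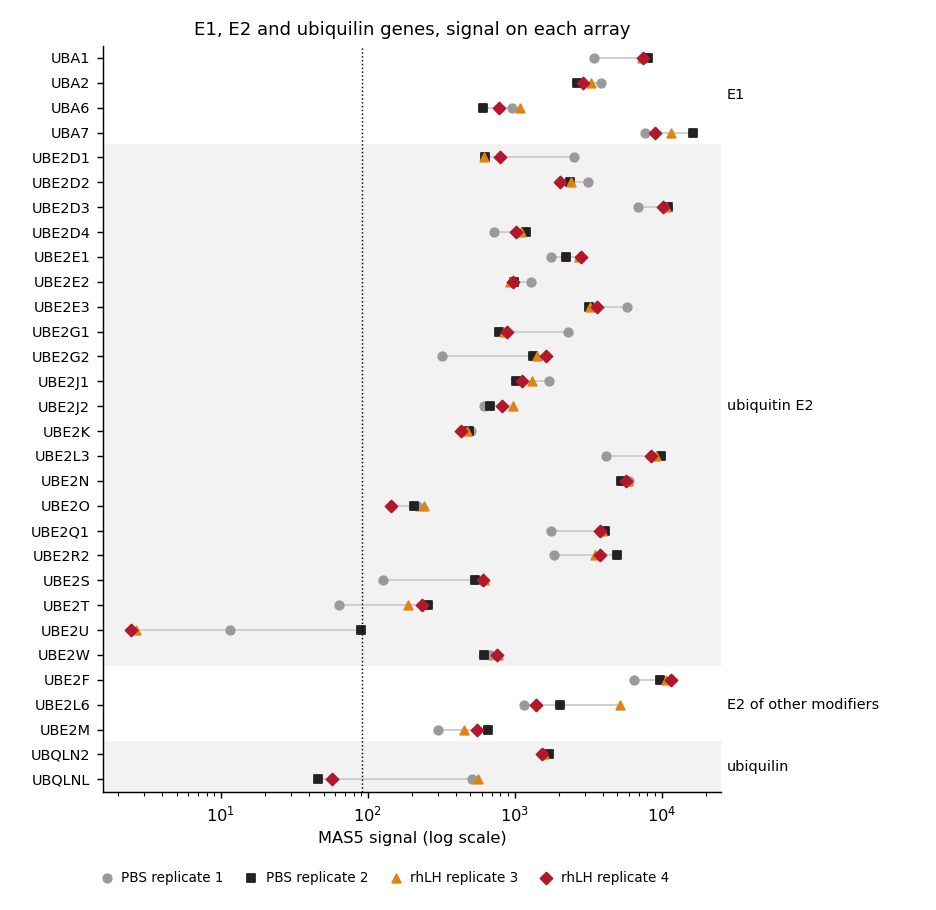
MAS5 signal of the 4 E1, 24 E2 and 2 ubiquilin genes on each array, on a log axis with a dotted line at the filter level of 90.7. PBS replicate 1 (grey circles) lies at the low end for UBE2G2 and UBE2S and at the high end for UBE2D1 and UBE2G1, while the other 3 arrays of these genes sit together.

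The E2 enzymes of NEDD8, a modifier that activates cullin ligases, are UBE2F and UBE2M. UBE2F had 6494 and 9767 with PBS and 10788 and 11609 with rhLH, and both rhLH arrays exceeded both PBS arrays by 0.78 and 0.20 on the log2 scale and 0.49 pooled (SE 0.36; limma adjusted p = 0.919). All 4 kept UBE2F probe sets lay above PBS replicate 2, by 0.20 to 0.45, and they ran from −1.02 to 0.78 against PBS replicate 1. UBE2M, named after its values were seen, had 302 and 657 with PBS and 454 and 553 with rhLH, between the PBS arrays. NEDD8 itself, from the list of related genes, had 5084 and 7909 with PBS and 9956 and 8888 with rhLH, with differences of 0.89, 0.25 and 0.57 (SE 0.36) in the order of PBS replicate 1, PBS replicate 2 and pooled.

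Ubiquilins carry ubiquitinated proteins to the proteasome. UBQLN2 had 1608 and 1704 with PBS and 1574 and 1524 with rhLH. Its second probe set was higher on PBS replicate 1, at 815, than on the other arrays, at 473 to 495. UBQLNL had 512 and 45.8 with PBS and 567 and 56.9 with rhLH, so each group held 1 high array and 1 array below the filter level, and its log2 difference was −1.36 from the first control, 1.74 from the second and 0.19 pooled (SE 1.35). It was read by 1 probe set, and no other probe set of the gene was there to compare.

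Other genes of the pathway were looked at in a list of 31 symbols of accessory factors, shuttles, transcription factors and modifiers. Some of the symbols are synonyms, such as SHFM1 and SEM1, and 15 were measured and kept. limma called 0 of the 15 (adjusted p 0.919 to 0.984). Their median was 0.36 from PBS replicate 1 but 0.094 from PBS replicate 2. ADRM1, a ubiquitin receptor of the 19S particle, had 233 and 1068 with PBS and 1159.6 and 1242 with rhLH, with differences of 2.29 and 0.17. With NEDD8 and SAE1 it was one of 3 related genes above both PBS arrays, 20% of the 15 where all kept genes gave 16.3%, and 0 lay below, where all kept genes gave 16.1%. NFE2L1, a transcription factor of proteasome genes named here after its values were seen, had 2409.7 and 3371 with PBS and 2857 and 3422 with rhLH.

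Different probe sets of a gene often disagreed about PBS replicate 1. Of the 36 members with 2 or more kept probe sets, 17 had differences of both signs against PBS replicate 1 and 20 had both signs against PBS replicate 2. The spread between the lowest and highest probe set of a gene had a median of 1.24 with the first control and of 0.32 with the second. It was widest for PSME2, from −2.14 to 1.43, and for UBE2S, from −0.86 to 2.32, both against PBS replicate 1. Probe sets of PSMC4 ran from 0.99 to 2.19 and those of PSMB10 from 1.31 to 1.60, all on 1 side. One member probe set of 120 kept had an unadjusted limma p under 0.05, where 2.02% of all 31659 kept probe sets did. It was MmuSTS.974.1.S1_at of UBE2L3, an E2 of HECT and RBR ligases. It had 979 and 1022 with PBS and 1851 and 1761 with rhLH, a log2 difference of 0.84 (SE 0.31; limma adjusted p = 0.919). Its differences from PBS replicates 1 and 2 were 0.87 and 0.81, and it was named after its values were seen. The other 2 UBE2L3 probe sets lay at 0.45 and 0.16 pooled. They stood at 1.07 and 0.44 against PBS replicate 1 and at −0.17 and −0.12 against PBS replicate 2.

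**Figure D5:**
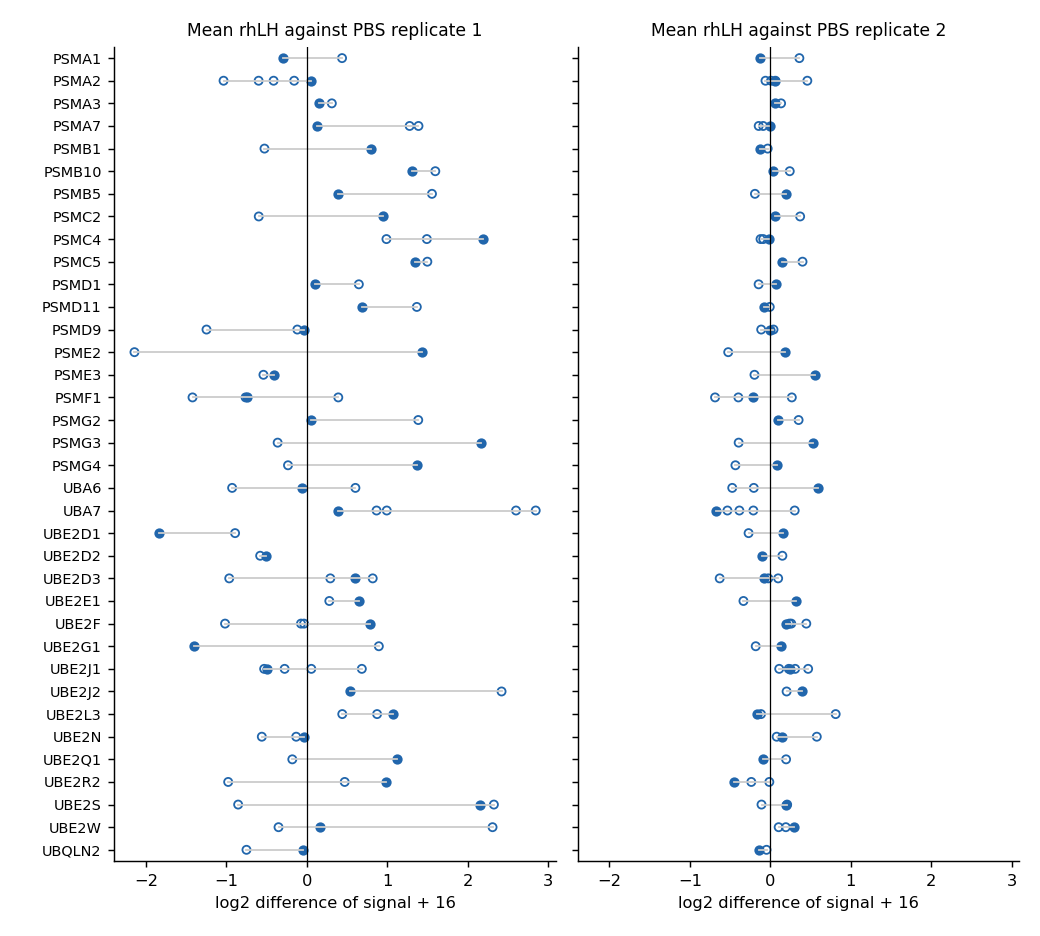
Log2 difference of the mean of both rhLH arrays from PBS replicate 1 (left) and PBS replicate 2 (right) for each kept probe set of the 36 genes that have several. Filled points are the probe sets that represent the genes, open points the others; the points of a gene lie farther apart on the left (median spread 1.24) than on the right (0.32).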

How the data were processed

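RNA from corpora lutea was hybridised to 4 rhesus macaque arrays. Per the labels, the authors summarised each probe set with MAS5, and the deposited values are intensities on a linear scale; the sources used here give no scaling target, detection calls or filters. The 2% trimmed means of the arrays ran from 500.03 to 500.04. Of 52865 probe sets, 99 controls were set aside. Values entered as log2(signal + 16), and probe sets with a mean log2 above the 40th percentile were kept. limma 3.58.1 in R 4.3.3 tested rhLH against PBS (lmFit, then eBayes with a mean-variance trend; two-sided p-values adjusted by Benjamini-Hochberg over all kept probe sets; threshold 0.05). The test code was checked on simulated data. Arrays are given by group and replicate, and their number limits precision. Symbols came from the platform's annotation, which can be old. No genome or sequence table was used, so no sequences are printed. Mismatches between rhesus probes and bonnet monkey transcripts were not examined.

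The genes, lists and rules were chosen with earlier results of these data known. Named genes were, per role, the one with the highest mean and the 2 with the smallest p. To these were added the 5 largest and 5 smallest differences among genes whose groups did not overlap, a fixed panel (of which UBA1, PSMB8, PSMB10 and UBE2L6 were measured) and 4 related genes. Further named genes that passed no such rule, such as PSMA2, PSMB1, PSMB5, PSMC4 and PSMC6, are examples chosen from their values. Alternatives covered normalization, centring, pseudocount, filter, variance prior, array weights, probe set choice and each array left out. Endothelial, fibroblast, leukocyte, steroidogenic, red cell and smooth muscle markers were also measured. Their median log2 differences were 0.24, 0.76, 1.32, 1.10, 0.50 and 0.61 from PBS replicate 1, and 0.12, −0.16, 0.14, 0.0023, 0.66 and 0.0098 from PBS replicate 2. These medians rest on 7, 5, 4, 5, 2 and 2 kept genes in turn. From PBS replicate 2 the smooth muscle genes were opposed, TAGLN at 1.30 and MYH11 at −1.28. The red cell genes stood at 0.092 (HBB) and 1.23 (ALAS2), and the steroidogenic genes ran from −0.31 (INHA) to 1.13 (CYP19A1).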

Additional observations from a re-analysis of the deposited data

How the results depend on the processing

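No paired analysis was possible because the groups share no replicate number. In every alternative that kept all 4 arrays limma called 0 members, and 0 members were at least 2-fold apart. Leaving out 1 array gave 0 to 8169 called probe sets, 0 to 23 called members, 0 to 18 members at least 2-fold apart and 27 to 52 members whose groups did not overlap (45% to 86.7%, beside 51.8% to 86.9% of all kept genes); the upper ends all came without PBS replicate 2, where PBS replicate 1 was the sole control, and 1 member was at least 2-fold apart without rhLH replicate 4. The median log2 difference then ran from 0.055 to 0.67 for proteasome genes (lowest without PBS replicate 1), from 0.10 to 0.54 for E2 genes and from −0.13 to 0.26 for E1 and ubiquilin genes. Arrays centred on their medians gave 0.53 for proteasome genes and 0.30 for E1 and ubiquilin genes, while all kept genes moved to 0.25, and the filter at the 70th percentile gave −0.055 for E1 and ubiquilin genes. Without a filter all 62 genes had a median of 0.26.

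Of the 34 named genes, 31 kept their sign under quantile normalization, 30 under centring and 30 with the mean of a gene's kept probe sets. Signs turned for PSMA3 (−0.11), PSMA7 (−0.23) and PSMD1 (−0.033) under quantile normalization. They turned for PSMA1 (0.016), UBA7 (0.082), UBE2K (0.096) and UBQLN2 (0.13) under centring, and for PSMA1 (0.094), PSME2 (−0.26), UBA6 (−0.079) and UBA7 (0.62) with averaged probe sets. Leaving out 1 array moved PSMA3 from −0.059 to 0.27, PSMA7 from −0.040 to 0.17, PSMB6 from −0.13 to 0.96, PSMB7 from −0.10 to 1.42, PSMD8 from −0.12 to 1.43, UBA1 from −0.12 to 1.10, UBA6 from −0.060 to 0.59, UBA7 from −0.68 to 0.39, UBE2D3 from −0.084 to 0.59, UBE2L6 from −0.15 to 1.74 and UBQLNL from −1.36 to 1.74. The causes were not tested. Pseudocounts of 1 and 64 turned 0 signs.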

Other observations

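Some subunit genes were read only by probe sets that the annotation gives to several genes, and these values cannot be assigned to 1 of them. A probe set shared by PSMD4, a ubiquitin receptor of the 19S particle, and PIP5K1A had signals of 799 on PBS replicate 1, 2059.6 on PBS replicate 2, and 2569.9 and 1946 on the rhLH arrays. A second one of the same pair had 1037 and 1193 with PBS and 1552 and 1415 with rhLH, both rhLH arrays above both PBS arrays. The probe set shared by PSMA6 and LOC709146 was dim on all arrays, from 7.06 to 66.3. The 2 members below the filter had signals of 30.2 to 130 for PSMB11, a thymus subunit, and of 2.45 to 90.5 for UBE2U.

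Of the 5 probe sets of the proteasome deubiquitinase USP14, chosen here after their values were seen, the representative one had 12600 on PBS replicate 1, 35348 on PBS replicate 2, and 19298 and 26300 with rhLH. Both rhLH arrays lay between the PBS arrays.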
